A study of Nicotiana plumbaginifolia and Nicotiana benthamiana and Nicotiana rustica with 81 samples.

Results

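The nicotine and polyamine route was followed through 5 transcripts, listed by their sequence identifiers, out of 38230 reference transcripts in the table. They are an ornithine decarboxylase (AF127242.1), the N-methylputrescine oxidase NtMPO2 (AB289457.1), a pair of quinolinate phosphoribosyltransferase transcripts (AB038494.1 and XM_016652759.1) and the cytochrome P450 CYP82E2 (DQ131887.2). The study sequenced RNA from hand-dissected floral nectaries, the glands that make nectar, of plants of 6 species grown from germplasm collection seed, N. benthamiana, N. rustica, N. glauca, N. plumbaginifolia, N. bonariensis and N. clevelandii. Nectaries were taken at stage 6, when the gland is immature, at stage 9, before secretion, at stage 12, when the flower is open, and at the post secretory stage, which the protocol calls post-fertilization, and N. plumbaginifolia also gave leaf, ovary and sepal. Each of the 27 labelled groups has 3 libraries, 81 in all, and the deposited table holds, for each group, only a mean of normalized counts and its SD, both computed by the authors. The sources do not state whether the libraries of a group came from separate plants, so their SD may be technical, and the protocol names stems where the sample labels name sepal and speaks of fewer libraries, 3 over the tissues other than nectary, where the labels list 3 for each.

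Nicotine joins a pyrrolidine ring, made from putrescine, to a pyridine ring, made from nicotinic acid. Ornithine decarboxylase and arginine decarboxylase supply putrescine, which is methylated and then oxidized by N-methylputrescine oxidase, while quinolinate phosphoribosyltransferase acts in the branch to NAD and nicotinic acid. Nicotine is known to be made mainly in roots and carried to the shoot, putrescine also feeds spermidine and spermine in all tissues, and active CYP82E enzymes demethylate nicotine to nornicotine, an activity that CYP82E2 of N. tabacum is known to lack.

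N. bonariensis and N. clevelandii carry identical columns for every one of the 38230 transcripts. Their values entered once, as the joint profile, which leaves 5 profiles, 20 nectary groups and 23 distinct groups. Reads of all species were counted on the same reference transcripts, those described here being N. tabacum entries but for an N. rustica one (AJ243437.1), so a level of a species also carries how well its own transcript matches each entry, and a low level and a poor match cannot be told apart. Library totals are not in the table, so the depth is unknown and a group listed at 0 has no stated limit. The sums of the group means ran from 7824385 to 15248393. The highest sum, of N. plumbaginifolia stage 9, held a single poly(A) polymerase entry (XM_016598866.1) at 7143395 with an SD of 4531179. The median SD relative to the mean was largest in leaf (0.323), the joint profile post secretory (0.247), N. rustica post secretory (0.215) and N. glauca stage 12 (0.169). The summed level of 18 nectary marker entries was 14946 to 103324 at stages 6 to 12, with 10 to 15 entries above 0, and 1096 to 9200 post secretory. The summed level of 32 leaf marker entries was 1571 to 13216 at stages 6 to 12 and 15273 to 41148 post secretory, against 347195 in leaf. From stage 6 to post secretory, the sum of 7 phloem and xylem marker entries was higher in all 5 profiles, 711 and 1578 in N. benthamiana, 1479 and 2587 in N. rustica, 217 and 2265 in N. glauca, 457 and 2539 for N. plumbaginifolia and 501 and 1773 for the joint profile. The sum of 22 ovule and ovary entries was lower in 4 of 5, at 4942 to 7979 at stage 6 and 2044 to 3731 post secretory, and higher in N. plumbaginifolia (3822 and 4759). In the ovary of N. plumbaginifolia it was 6403, within the 3822 to 7445 of its nectary stages, so this sum did not set ovary apart from nectary.

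Means are given below with the authors' SD (n = 3 libraries). All 3 values behind a mean lie within 1.155 SDs of it, so groups whose means differ by more than 1.155 times the sum of their SDs cannot overlap, and such groups are called apart. Over the 15 steps between neighbouring stages of a profile, 42.5% of all transcript steps above 0 were apart, 52.6% of those of the 107 transcripts of the nicotine and polyamine list, and 43 of 63 (68.3%) for the 5 transcripts. The 5 were chosen with earlier results of these data known, so a higher share for them, here or below, is descriptive only. Over all transcripts, the steps from stage 6 to 9, 9 to 12 and 12 to post secretory were apart in 48.3%, 49.5% and 56.0% in N. benthamiana, and in 48.4%, 42.9% and 37.4% in N. rustica. They were 50.6%, 39.0% and 47.0% for N. glauca, 47.9%, 41.0% and 35.5% for N. plumbaginifolia and, lowest, 42.0%, 25.0% and 29.9% in the joint profile. A stage effect shared by the profiles was tested with limma on log2 of the mean plus 1 over 36627 transcripts, with the 5 profiles as replicates and Benjamini-Hochberg adjusted p-values.

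Ornithine decarboxylase AF127242.1, which makes putrescine directly from ornithine, was highest in the youngest nectaries of N. glauca and N. plumbaginifolia. In N. glauca its level was 9647 ± 186 at stage 6, 5571 ± 74 at stage 9, 388 ± 215 at stage 12 and 318 ± 95 post secretory. In N. plumbaginifolia it was 2791 ± 56, 636 ± 28, 271 ± 16 and 616 ± 23 at the same stages. Both profiles were apart at each step up to stage 12, a 24.8-fold lower level at stage 12 than at stage 6 in N. glauca and a 10.3-fold lower one in N. plumbaginifolia.

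In N. rustica the same transcript stood at 502 ± 7 at stage 6, 69 ± 18 at stage 9, 87 ± 9 at stage 12 and 618 ± 907 post secretory. N. rustica thus shared the step down from stage 6 to stage 9, 7.19-fold, while its post secretory libraries spread so widely that they may overlap every other stage. In N. benthamiana the level was 138 ± 15, 175 ± 19, 123 ± 20 and 487 ± 33, with stage 12 apart below stage 9 and the post secretory group highest, 3.94-fold above stage 12. In the joint profile it was 93 ± 14, 62 ± 21, 112 ± 13 and 161 ± 137, where the step from stage 9 to stage 12 was the only one apart. The joint profile alone had further ornithine decarboxylase entries above 0, D89984.1 at 339 ± 39 and LC030209.1 at 269 ± 13 at stage 6, so that AF127242.1 held 13.3% of their sum of 701. The sum of all entries gave an estimate of -2.05 for stage 12 against stage 6 (SE 0.85, limma adjusted p = 0.25).

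Over the 5 profiles, 3 clear falls from stage 6 to stage 12 and a pair of small changes gave a limma estimate of -2.08 (SE 0.85, 95% confidence interval -3.89 to -0.27) for ornithine decarboxylase. It did not pass the test after Benjamini-Hochberg adjustment (unadjusted p = 0.027, adjusted p = 0.23, lower in 4 of 5 profiles). Post secretory against stage 12 the estimate was 1.24 (SE 0.85, adjusted p = 0.48), with 4 of 5 profiles higher. Post secretory against stage 6 it was -0.84 (SE 0.85, adjusted p = 0.54) and the profiles split, N. glauca at -4.92 and N. plumbaginifolia at -2.18 against N. benthamiana at 1.81, N. rustica at 0.30 and the joint profile at 0.79. Without N. glauca that last estimate was 0.18.

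**Figure D1:**
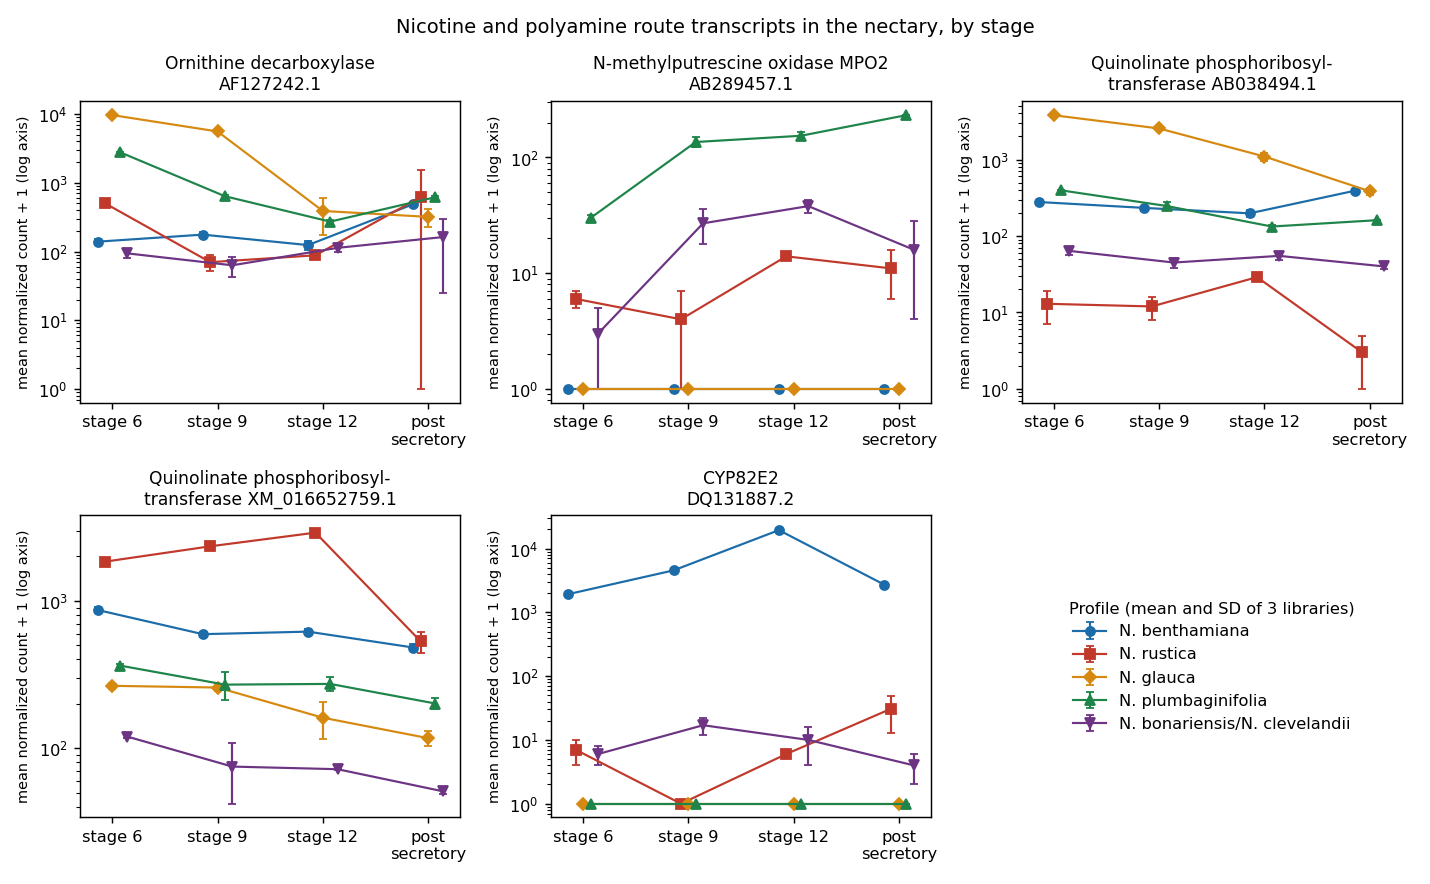
Mean normalized count plus 1 (log axis) of the 5 transcripts at the 4 nectary stages; points are the authors' group means, bars their SD (3 libraries), and colours the 5 profiles. Ornithine decarboxylase of N. glauca falls from 9647 to 318. CYP82E2 of N. benthamiana, 1933 at stage 6, peaks at 19485, while CYP82E2 of the other profiles lies at 30 or below.

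N-methylputrescine oxidase NtMPO2, AB289457.1, the copper amine oxidase that makes the ring precursor of nicotine from methylated putrescine, was found in 3 profiles. In N. plumbaginifolia its level was 29 ± 2 at stage 6, 135 ± 13 at stage 9, 153 ± 13 at stage 12 and 231 ± 3 post secretory. The post secretory and stage 6 groups of N. plumbaginifolia were apart from their neighbours, and stages 9 and 12 may overlap. In the joint profile it was 2 ± 2, 26 ± 9, 37 ± 5 and 15 ± 12, lowest at stage 6. In N. rustica it was 5 ± 1, 3 ± 3, 13 ± 1 and 10 ± 5, with the step from stage 9 to stage 12 apart, and in N. benthamiana and N. glauca it was listed at 0 at all 4 stages.

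The other N-methylputrescine oxidase entry, MPO1 (DQ873385.1), was above 0 in both profiles in which NtMPO2 was at 0. In N. benthamiana MPO1 was 98 ± 12, 139 ± 6, 217 ± 29 and 217 ± 22 by stage, and in N. glauca 3 ± 1, 4 ± 1, 9 ± 9 and 11 ± 5. It was listed at 0 in the nectary of N. rustica and N. plumbaginifolia, and at 0 to 11 in the joint profile. Each of 4 profiles therefore had a single one of these entries above 0, and use of another gene copy and a better match of the reads to another entry cannot be told apart.

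NtMPO2 passed the filter on low values only through N. plumbaginifolia (its mean over the other 16 nectary groups was 6.94, under the minimum of 10), and taken alone it did not pass the test. Its estimates, in which both profiles at 0 count as no change, were 1.45 on the log2 scale for stage 12 against stage 6 (SE 0.50, adjusted p = 0.17) and 1.25 for post secretory against stage 6 (SE 0.50, adjusted p = 0.13), with 3 of 5 profiles higher in each. The sum of NtMPO2 and MPO1, added after the values were seen, rose post secretory against stage 6 by 1.94 (SE 0.43, limma, Benjamini-Hochberg adjusted p = 0.016, higher in 5 of 5 profiles). It rose by 2.00 at stage 12 against stage 6 (SE 0.43, adjusted p = 0.048, higher in 5 of 5). By profile, the sums at stage 6 and post secretory were 29 and 231 for N. plumbaginifolia, 98 and 217 for N. benthamiana, 2 and 26 for the joint profile, 3 and 11 in N. glauca and 5 and 10 in N. rustica. The last 3 were low, and the NtMPO2 libraries of these stages may overlap in N. rustica and the joint profile. Summed over every entry of the same Arabidopsis locus, the change post secretory against stage 6 was negative. The post secretory call was lost without N. glauca (adjusted p = 0.053) or N. plumbaginifolia (0.058), and the stage 12 call without any 1 of the 5 profiles (0.097 to 0.15). The pseudocount decided the stage 12 call as well, with an adjusted p of 0.055 at 10 and 0.06 at 0.1. The post secretory call was also lost without the 3 nectary groups of widest spread (0.087) and without the 7 groups in which the ovule gene AGL11 summed to at least 5 times its stage 6 level (0.081). Leaving out those 7 took away the post secretory groups of N. glauca and N. plumbaginifolia and left 5 residual degrees of freedom in place of 12. A call lost in that setting, here or below, may thus reflect fewer groups. The marker sums given above moved in the same post secretory groups, and their part was not tested.

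Quinolinate phosphoribosyltransferase, an enzyme of the pyridine branch that turns quinolinic acid into nicotinic acid mononucleotide, was read through 5 entries, of which AB038494.1 and XM_016652759.1 were led by different species, N. glauca and N. rustica. AB038494.1 was highest in N. glauca, with 3790 ± 85 at stage 6, 2544 ± 82 at stage 9, 1094 ± 128 at stage 12 and 384 ± 43 post secretory. All 4 stages of N. glauca were apart, and the first 3 lay above every group of every other profile. In N. plumbaginifolia it was 394 ± 4, 246 ± 29, 132 ± 8 and 160 ± 2, again with every step apart and the lowest level at stage 12. In N. benthamiana it was 277 ± 1, 232 ± 9, 197 ± 21 and 390 ± 15, where the post secretory group was the highest and not the lowest. The joint profile (63 ± 7, 44 ± 7, 54 ± 6 and 39 ± 3) and N. rustica (12 ± 6, 11 ± 4, 28 ± 3 and 2 ± 2) were low at all stages.

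For AB038494.1 the post secretory level was lower than that of stage 6 in 4 of 5 profiles, with a limma estimate of -1.38 (SE 0.51, 95% confidence interval -2.47 to -0.29). After Benjamini-Hochberg adjustment it did not pass (unadjusted p = 0.017, adjusted p = 0.10), and N. benthamiana stood 0.49 higher on the log2 scale. Every other stage contrast of AB038494.1 had an adjusted p of 0.46 to 0.99.

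XM_016652759.1, annotated as a chloroplastic nicotinate-nucleotide pyrophosphorylase, another name of the same enzyme, was the only 1 of the 5 transcripts to pass the test. In N. rustica it was 1844 ± 78 at stage 6, 2344 ± 43 at stage 9, 2902 ± 160 at stage 12 and 530 ± 85 post secretory. In N. benthamiana it was 866 ± 38, 593 ± 24, 617 ± 22 and 481 ± 24. N. rustica climbed to stage 12 with each step apart, while N. benthamiana stood highest at stage 6, and both were lowest post secretory. In N. glauca the level was 264 ± 14, 257 ± 13, 160 ± 46 and 116 ± 14. The joint profile had the lowest levels, 119 ± 2, 74 ± 33, 71 ± 1 and 50 ± 2, and N. plumbaginifolia had 363 ± 11, 269 ± 59, 272 ± 29 and 200 ± 17. The post secretory group was thus the lowest mean of all 5 profiles, and in each it was apart from stage 6.

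Post secretory against stage 6, XM_016652759.1 fell by 1.18 on the log2 scale (SE 0.26, 95% confidence interval -1.73 to -0.63, limma, Benjamini-Hochberg adjusted p = 0.014, lower in 5 of 5 profiles). That makes 1 of the 5 transcripts called, beside 9.1% of all transcripts tested, 4.86% higher and 4.24% lower, so the count is not set apart from the background. The fold by profile was 3.47 in N. rustica, 2.35 in the joint profile, 2.26 for N. glauca, 1.81 for N. plumbaginifolia and 1.80 for N. benthamiana. The estimate held its size but not the call without N. glauca (-1.18, adjusted p = 0.054) or the joint profile (-1.17, adjusted p = 0.086). Without the 3 nectary groups of widest spread it was -0.89 (adjusted p = 0.066). Without the 7 groups of high AGL11, on 5 residual degrees of freedom, it was -1.38 (adjusted p = 0.096), no smaller in size. Nectary markers were lower, and leaf, phloem and xylem markers higher, in the same post secretory groups, ovule and ovary markers were lower in 4 of 5 profiles, and their part in this fall was not tested. In bulk RNA, fewer cells of a type and less RNA per cell cannot be told apart.

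In the remaining contrasts none of the 5 transcripts passed the test, beside 0.0% of all transcripts for stage 9 against 6 and for stage 12 against 9. The background was 0.838% for stage 12 against 6 (0.478% higher, 0.36% lower), 0.786% for post secretory against stage 12 (0.232% higher, 0.554% lower), and 4.04% for the F test over any stage. Without adjustment, limma gave p under 0.05 for 2990 and 1776 transcripts in those first contrasts. The nearest was XM_016652759.1 post secretory against stage 12, at -0.84 (SE 0.26, adjusted p = 0.14, lower in 5 of 5 profiles), and its F test over the 4 stages had an adjusted p of 0.054.

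**Figure D2:**
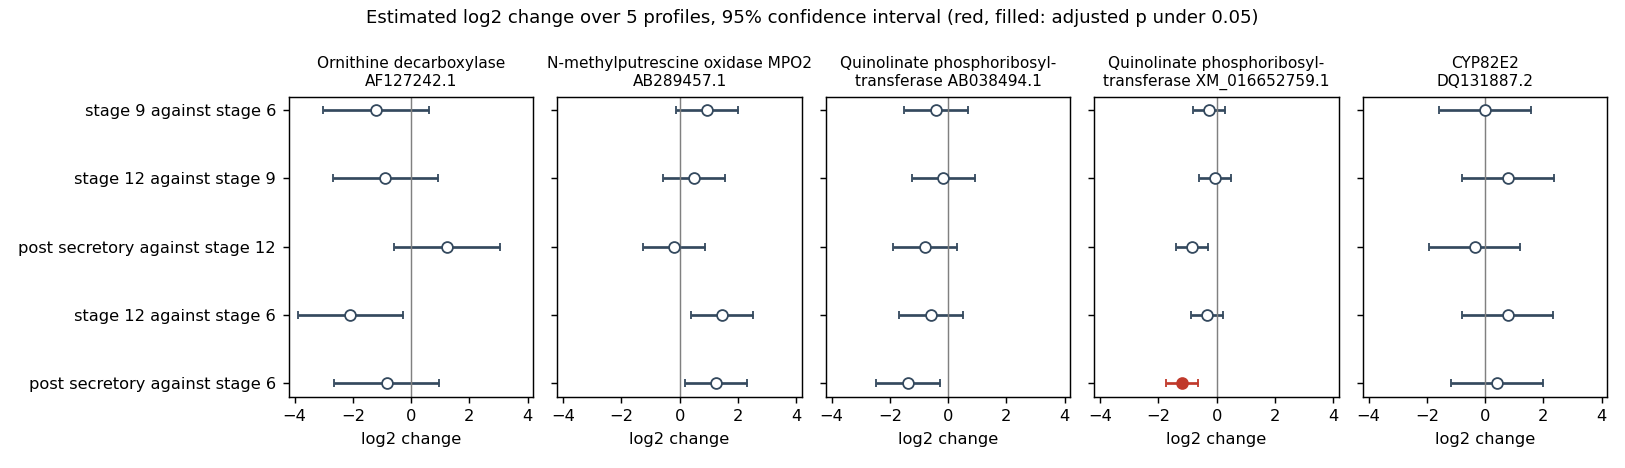
Estimated log2 change of each of the 5 transcripts in the 5 stage contrasts (x axis, log2 of mean plus 1), from limma over 5 profiles, with 95% confidence intervals. The fall of XM_016652759.1 post secretory against stage 6, -1.18 (-1.73 to -0.63), is the red, filled point and the only one with an adjusted p under 0.05.

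The 5 quinolinate phosphoribosyltransferase entries shared the reads differently in each profile, as a share of their summed mean and not per length. At stage 6, AB038494.1 held 84.9% of the sum of N. glauca, 49.2% of that of N. plumbaginifolia, 20.6% for N. benthamiana, 3.72% for the joint profile and 0.345% for N. rustica. XM_016652759.1 held 64.5% for N. benthamiana, 53.0% for N. rustica, 45.4% for N. plumbaginifolia, 7.02% for the joint profile and 5.92% for N. glauca. The N. rustica sequence AJ243437.1 took most of the remainder in N. rustica (45.4%) and in the joint profile (68.2%), and was listed at 0 in N. glauca and N. plumbaginifolia. How the counting divided reads of near-identical entries is not stated in the sources, so the single entries are uncertain where their sequences are alike.

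The sum of the 5 entries, also added after the values were seen, fell post secretory against stage 6 by 1.24 on the log2 scale (SE 0.34, limma, Benjamini-Hochberg adjusted p = 0.036, lower in 5 of 5 profiles). The sums at stage 6 and post secretory were 4462 and 821 in N. glauca, 3481 and 934 in N. rustica, 800 and 403 for N. plumbaginifolia, 1695 and 1174 for the joint profile and 1342 and 1039 in N. benthamiana. The drop was steepest in N. glauca and N. rustica and under 1.5-fold in N. benthamiana and the joint profile. The call was lost without N. rustica (adjusted p = 0.07), N. glauca (0.15), N. plumbaginifolia (0.067) or the joint profile (0.097). It was also lost without the groups of widest spread (0.12) or those of high AGL11 (0.24). The part of the marker sums, which moved in the same groups, was not tested.

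**Figure D3:**
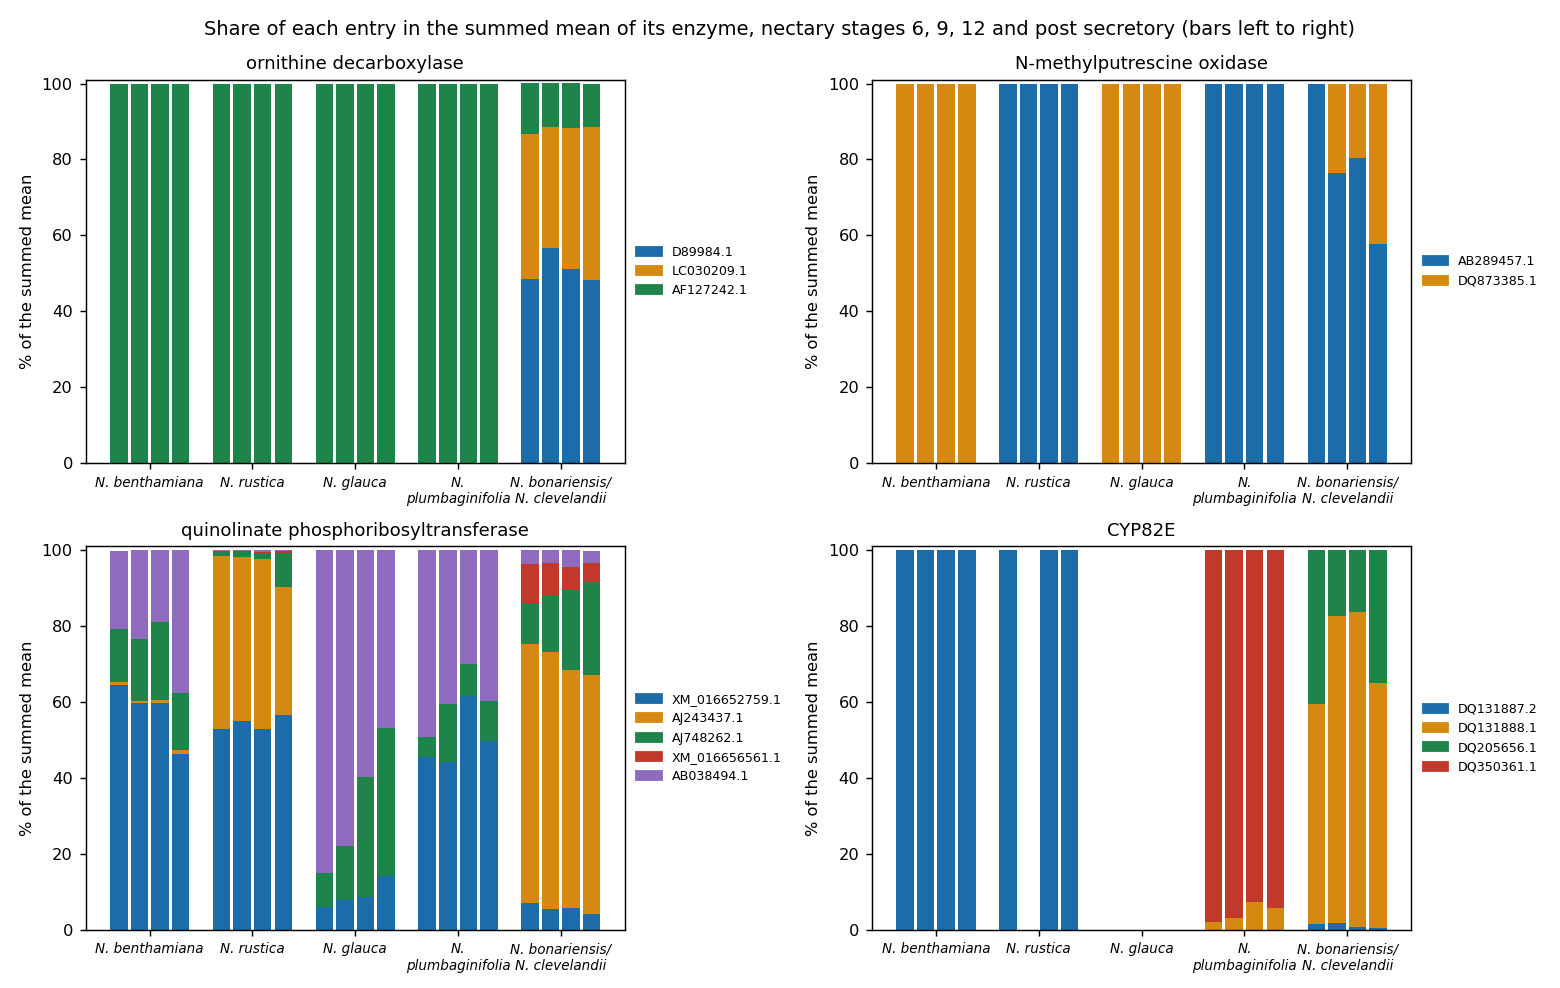
Share of each table entry in the summed mean of its enzyme (y axis, % of the sum), for the 4 nectary stages of each profile from left to right; an empty place means that all entries were listed at 0. AB038494.1 makes up 84.9% of quinolinate phosphoribosyltransferase in N. glauca at stage 6 and 0.345% in N. rustica, and the CYP82E entry with the largest share differs between N. benthamiana, N. plumbaginifolia and the joint profile.

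CYP82E2, DQ131887.2, a member of the nicotine demethylase family, was in effect an N. benthamiana transcript in this table. Its level there was 1933 ± 93 at stage 6, 4558 ± 131 at stage 9, 19485 ± 648 at stage 12 and 2726 ± 182 post secretory. All 4 groups were apart, with a 10.1-fold higher level at stage 12 than at stage 6 and a 7.15-fold lower one after secretion. In N. rustica it was 6 ± 3, 0, 5 ± 0 and 30 ± 18, and in the joint profile 5 ± 2, 16 ± 5, 9 ± 6 and 3 ± 2. In N. glauca and N. plumbaginifolia it was listed at 0 in every group. CYP82E2 passed the filter on low values through N. benthamiana alone (its mean over the other 16 nectary groups was 4.62), and its limma estimates over the profiles had adjusted p-values of 0.61 to 1.

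Other CYP82E entries carried the signal in the joint profile and in N. plumbaginifolia. CYP82E3 (DQ131888.1) of the joint profile was 197 ± 15, 745 ± 15, 1223 ± 50 and 439 ± 267 by stage, and the nicotine demethylase entry DQ205656.1 was 137 ± 15, 161 ± 50, 238 ± 44 and 236 ± 126. CYP82E8 (DQ350361.1) of N. plumbaginifolia was 195 ± 14, 214 ± 28, 188 ± 5 and 163 ± 13. CYP82E3 of the joint profile thus had its highest mean at stage 12, as CYP82E2 had in N. benthamiana, whereas CYP82E8 stayed between 163 and 214. All 4 entries were listed at 0 in N. glauca, and all but CYP82E2 in N. rustica. Their sum changed by 1.05 from stage 6 to stage 12 (SE 0.69, limma adjusted p = 0.46) and did not pass the test.

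Between profiles at the same stage, 162 of 190 pairs above 0 were apart for the 5 transcripts (85.3%), beside 82.9% of all transcript pairs. The 2 quinolinate phosphoribosyltransferase transcripts were apart in 38 of 40 pairs each and ornithine decarboxylase in 30 of 40. NtMPO2 was apart in 28 of 36 pairs above 0 and CYP82E2 in 28 of 34. In the order of the 23 group levels, ornithine decarboxylase had 6 of 22 neighbouring groups apart, led by N. glauca stage 6, N. glauca stage 9 and N. plumbaginifolia stage 6. From N. plumbaginifolia leaf (745) down to N. plumbaginifolia ovary (562), 5 neighbouring groups may overlap. AB038494.1 had 9 neighbours apart, XM_016652759.1 8, CYP82E2 4 and NtMPO2 2. The share of neighbours apart was not computed over all transcripts, so these counts have no background beside them.

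In N. plumbaginifolia the nectary could be set against leaf, ovary and sepal. NtMPO2 was listed at 0 in all 3 tissues and at 29 to 231 in the nectary. Each of its 12 comparisons was apart, beside 69.4% of all transcript comparisons above 0. With an SD of 0 in all 3 tissues, a low nectary level is enough to be apart. The authors' deposited table did not call stage 6 nectary, at 29 ± 2, against any of the 3 tissues. MPO1, at 0 in the nectary, was 16 ± 3 in ovary and at 0 in leaf and sepal. AGL11, summed over 4 entries, was 2552 in ovary and 118 to 1783 in the nectary of N. plumbaginifolia. The ovary thus held the highest AGL11 sum of all groups, and NtMPO2 was at 0 there, a level with no stated limit. The part of ovule tissue in the nectary level of NtMPO2 was not tested.

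Ornithine decarboxylase was 745 ± 263 in leaf, 562 ± 39 in ovary and 314 ± 15 in sepal. Stage 6 nectary stood above all 3 tissues, 3.74-fold over leaf, 4.96-fold over ovary and 8.86-fold over sepal. Stage 12 nectary (271 ± 16) stood below all 3, 2.74-fold under leaf and 2.07-fold under ovary. AB038494.1 was 148 ± 68 in leaf, 201 ± 50 in ovary and 96 ± 3 in sepal, and the stage 6 nectary was 1.96-fold to 4.07-fold higher. Another entry of the enzyme, AJ748262.1, went the other way against sepal. It was 91 ± 8 in leaf, 108 ± 16 in ovary and 249 ± 20 in sepal, and 37 to 93 in the nectary. The stage 6 excess of AB038494.1 is therefore that of a single entry. XM_016652759.1 was 293 ± 35, 276 ± 10 and 275 ± 18, close to the nectary at stages 9 and 12, with stage 6 apart above and the post secretory stage apart below all 3. CYP82E2 was at 0 in every tissue, the nectary included. CYP82E8 was 160 ± 18 in leaf, 203 ± 24 in ovary and 186 ± 6 in sepal, beside 163 to 214 in the nectary. CYP82E3 was 33 ± 36 in leaf, at 0 in ovary and 88 ± 14 in sepal, beside 4 to 15 in the nectary. Of 48 tissue comparisons above 0 for the 5 transcripts, 32 (66.7%) were apart, beside 69.4% of all transcripts, so the share is near the background. Over all transcripts the comparisons with leaf were apart in 58.7%, 52.4%, 56.5% and 56.2% at stages 6, 9, 12 and post secretory, those with ovary in 74.5%, 65.5%, 72.7% and 71.5%, and those with sepal in 82.7%, 77.8%, 81.2% and 81.8%.

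**Figure D4:**
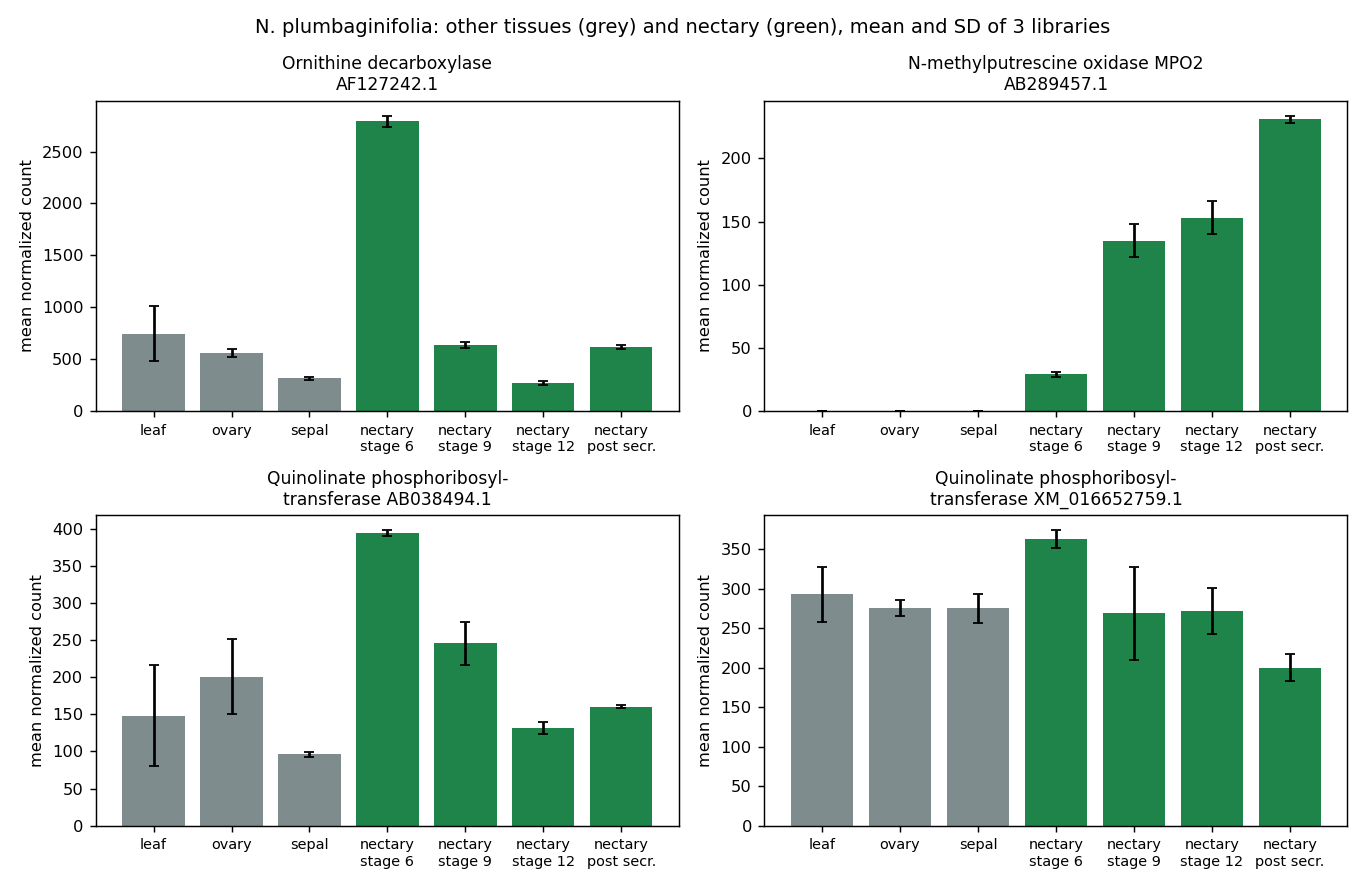
Mean normalized count (linear axis from 0) in leaf, ovary and sepal (grey) and in the 4 nectary stages (green) of N. plumbaginifolia, bars with the authors' SD of 3 libraries; CYP82E2, at 0 throughout, is not drawn. NtMPO2 is listed at 0 outside the nectary and reaches 231 post secretory, while ornithine decarboxylase peaks at 2791 at stage 6.

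The authors' deposited table also holds yes or no calls for each of 30 stage pairs within a profile, by a threshold that no source used here gives. Of 150 pairs for the 5 transcripts, the authors' deposited table called 62 (41.3%), beside 19.0% of all transcripts. The 5 were chosen with earlier results of these data known, and the pairs of a profile share their groups. Their higher share is therefore no test of stage regulation. By transcript, the authors' deposited table called 19 of 30 pairs for ornithine decarboxylase, 18 for XM_016652759.1, 14 for AB038494.1, 6 for CYP82E2 and 5 for NtMPO2. All 6 calls of CYP82E2 in the authors' deposited table were in N. benthamiana, and all 5 of NtMPO2 in N. plumbaginifolia. Over all transcripts the authors' deposited table called 22.9% of the pairs of N. benthamiana, 21.1% for N. glauca, 17.6% for N. rustica, 17.0% for the joint profile and 16.3% for N. plumbaginifolia.

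The rest of the route was described from a list of 107 transcripts, the 5 included, of which 102 passed the filter. Post secretory against stage 6, 5 of the 102 were called higher and 4 lower, beside 4.86% and 4.24% of all transcripts, and the median change was 0.08, beside 0.04 over all transcripts. In the other 4 stage contrasts limma called 0 of the 102. At an unadjusted p under 0.05 there were 6 for stage 9 against 6 and 5 for stage 12 against 9. There were 21 each for post secretory against stage 12 and for stage 12 against 6. In the same order, 2990, 1776, 5955 and 6136 of all 36627 transcripts were under it, so the list was not set apart. Entries for putrescine N-methyltransferase, the A622 reductase and the ERF regulators of nicotine genes were not analysed here.

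Besides XM_016652759.1, the called falls were 3 entries of the steps from agmatine to putrescine, of which 2 are variants of 1 locus. Agmatine deiminase, which carries on from arginine decarboxylase, fell in its entry XM_016610111.1 by 1.15 on the log2 scale (SE 0.19, limma, Benjamini-Hochberg adjusted p = 0.004, lower in 5 of 5 profiles). From stage 6 to post secretory its mean of 619 ± 46 became 257 ± 23 in N. benthamiana, 569 ± 16 became 266 ± 62 in N. rustica, and 556 ± 25 became 226 ± 19 in N. glauca. The joint profile had 75 ± 11 and 62 ± 4, and N. plumbaginifolia 6 ± 3 and 1 ± 1. This entry held its call without any 1 profile (adjusted p at most 0.033), lost it without the high AGL11 groups (0.071), and was the only one of the list past the F test over any stage (adjusted p = 0.013).

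A second transcript variant of the same agmatine deiminase locus, XM_016610112.1, with which the first may share reads, fell by 1.05 (SE 0.23, limma, Benjamini-Hochberg adjusted p = 0.016, lower in 4 of 5 and at 0 in the joint profile). In N. plumbaginifolia it went from 441 ± 12 to 276 ± 16. Its call was lost without N. benthamiana (0.062), N. glauca (0.06) or N. rustica (0.087). N-carbamoylputrescine amidase-like XM_016608446.1, the next enzyme, fell by 0.60 (SE 0.17, limma, Benjamini-Hochberg adjusted p = 0.037, lower in 4 of 5), a call lost without any 1 profile (0.058 to 0.13). None of 6 arginine decarboxylase entries passed, and the most abundant, AF321137.1, was 15935 ± 356 at stage 6 and 9997 ± 259 post secretory in N. benthamiana, 14193 ± 147 and 3808 ± 1323 in N. glauca, and 8278 ± 258 and 7264 ± 245 for N. plumbaginifolia. It was 4588 ± 173 and 6655 ± 6409 in N. rustica and 3398 ± 53 and 4298 ± 2937 for the joint profile, so 3 profiles were lower and 2 higher. Its estimate was -0.38 (SE 0.33, adjusted p = 0.48).

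The 5 called rises, a share of the 102 near the 4.86% of all transcripts, were 2 copper amine oxidase entries, 2 polyamine oxidase entries and 1 transporter entry. Primary amine oxidase-like XM_016613107.1 rose by 3.98 on the log2 scale (SE 1.05, limma, Benjamini-Hochberg adjusted p = 0.031, higher in 4 of 5, at 0 in N. benthamiana). Its means at stage 6 and post secretory were 9 ± 5 and 1829 ± 1219 in N. rustica, 131 ± 15 and 892 ± 1139 in the joint profile and 11 ± 2 and 29 ± 5 in N. plumbaginifolia, and in leaf it was 2695 ± 3598. In N. glauca it was listed at 0 at stage 6 and was 315 ± 247 post secretory, and the estimate without that profile was 2.90. The SD was above the mean post secretory in the joint profile and in leaf, and below it post secretory in N. rustica. Its call was lost without N. glauca (0.11), the joint profile (0.11), N. rustica (0.15) or the groups of widest spread (0.14).

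Copper methylamine oxidase-like XM_016617592.1, a relative of NtMPO2, rose by 2.09 (SE 0.49, limma, Benjamini-Hochberg adjusted p = 0.019, higher in 5 of 5) at low levels, at most 46 post secretory, with 387 ± 5 in ovary. Its call was lost without N. glauca (0.064), N. plumbaginifolia (0.068) or N. rustica (0.054). The polyamine oxidase 5 entries, of an enzyme that oxidizes spermine and related polyamines, rose by 1.78 (XM_016614062.1, SE 0.45, adjusted p = 0.028, 4 of 5) and by 1.59 (XM_016639103.1, SE 0.46, adjusted p = 0.047, 4 of 5). XM_016614062.1 reached 363 ± 9 post secretory in N. benthamiana from 39 ± 6, and XM_016639103.1 reached 490 ± 98 in N. glauca from 30 ± 6. The first call was lost without N. benthamiana (0.07), the joint profile (0.17) or N. rustica (0.075), and the second without any 1 profile (0.067 to 0.13) and at a pseudocount of 10 (0.06) or 0.1 (0.051).

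The probable polyamine transporter XM_016580785.1 rose by 2.10 (SE 0.51, limma, Benjamini-Hochberg adjusted p = 0.022, higher in 5 of 5), from 34 ± 5 to 89 ± 13 in N. benthamiana and from 8 ± 5 to 35 ± 9 in N. plumbaginifolia. Its leaf level was 216 ± 111. Its call was lost without N. benthamiana (0.051), the joint profile (0.10), N. plumbaginifolia (0.052) or N. rustica (0.065), and at a pseudocount of 0.1 (0.056). Leaf, phloem and xylem marker levels were higher in the same post secretory groups, and their part in these rises was not tested. These are 2 of 13 polyamine oxidase entries, 1 of 11 transporter entries and 2 of 8 copper amine oxidase entries tested, and no role was tested against the background. Of all 9 list calls, that of XM_016614062.1 was the one that held without the high AGL11 groups (adjusted p = 0.03), and those of XM_016617592.1, XM_016580785.1 and the pair of agmatine deiminase variants held without the groups of widest spread (0.016 to 0.03).

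Other roles had 0 calls in limma post secretory against stage 6. The median change was 0.16 over 10 S-adenosylmethionine decarboxylase entries tested, which make the aminopropyl donor of spermidine, 0.25 over 13 spermidine and spermine synthase entries and 0.30 over 16 S-adenosylmethionine synthase entries. It was -0.01 over 4 entries of L-aspartate oxidase and -0.43 over 2 of quinolinate synthase, the enzymes ahead of quinolinate phosphoribosyltransferase. The 2 quinolinate synthase entries went opposite ways, at -0.92 and 0.06. The most abundant S-adenosylmethionine decarboxylase, XM_016643521.1, was 42764 ± 651 at stage 6 and 9450 ± 220 post secretory in N. glauca. N. benthamiana had 7233 ± 105 and 11286 ± 292, N. plumbaginifolia 30306 ± 826 and 20613 ± 544, and its estimate was -0.59 (SE 0.34, limma adjusted p = 0.29, lower in 4 of 5 profiles). Quinolinate synthase XM_016638757.1 of N. glauca was 969 ± 37 at stage 6 and 55 ± 3 post secretory, and 340 ± 18 and 268 ± 10 in N. plumbaginifolia.

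**Figure D5:**
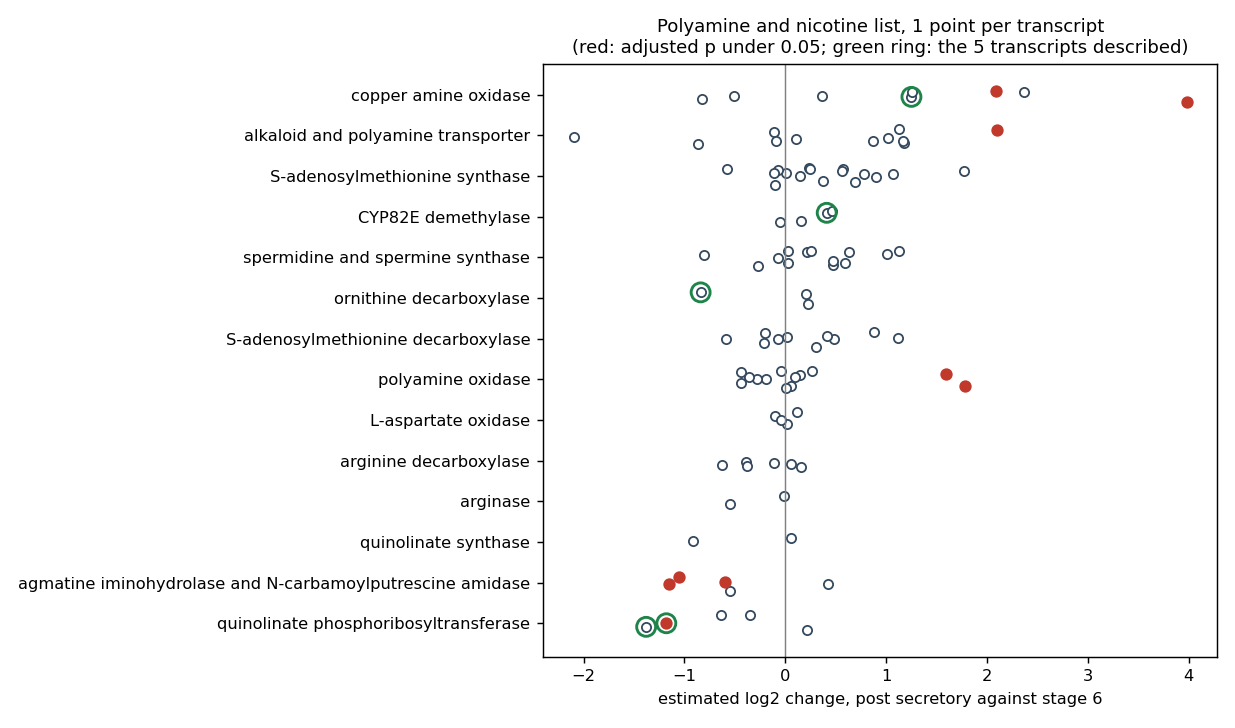
Estimated log2 change post secretory against stage 6 (x axis) of the 102 list transcripts tested, 1 point each, by role; red points have an adjusted p under 0.05 and green rings mark the 5 transcripts described. The 4 called falls lie in agmatine deiminase, N-carbamoylputrescine amidase and quinolinate phosphoribosyltransferase, and the 5 called rises in copper amine oxidases, polyamine oxidases and a transporter.

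Across the 23 groups, ornithine decarboxylase and AB038494.1 had a Pearson correlation of 0.60 and a Spearman correlation of 0.54 on the log2 scale, the highest among the 5 transcripts. The other 9 pairs had Pearson values of -0.36 to 0.26. These groups share profiles, so a level that differs between species moves both values of a pair in 4 or 7 groups at once. The transcripts most like ornithine decarboxylase by Pearson correlation were a TIM22-4-like import subunit (XM_016630220.1, 0.811), a GDSL esterase (XM_016610009.1, 0.799) and a TIFY 5A-like protein (XM_016621532.1, 0.787). For NtMPO2 they were an uncharacterized transcript (XM_016583512.1, 0.941), the phosphate starvation transcript pit2 (D29681.1, 0.933) and an ARP1-like RNA-binding protein (XM_016584117.1, 0.933). For AB038494.1 all 3 were uncharacterized (0.916 to 0.921). For XM_016652759.1 the named ones were an R1A-10 homolog (XM_016591129.1, 0.901) and a photosynthetic NDH subunit (XM_016599418.1, 0.896), and for CYP82E2 a TSL-kinase interacting protein (XM_016613310.1, 0.969).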

How the data were processed

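RNA was sequenced from hand-dissected nectaries and from 3 other tissues, 3 libraries per group, per the labels' protocols. In the deposited table each group has a mean and an SD, made by the authors, as whole numbers of normalized counts, a unit treated here as a score, and the authors' yes or no calls of differential expression, of unit other. The submitters' processing notes name DESeq. The aligner, the counting, the calling threshold and whether species were normalized together are details not given in the sources used here. Values per library are not in the table, so depth and counting precision are unknown.

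Stage contrasts were fitted with limma 3.58.1 (R 4.3.3) on log2 of the mean plus 1, with profile as a block, a variance trend and 12 residual degrees of freedom. It took in 36627 transcripts, those averaging 10 or more across 20 nectary groups, with Benjamini-Hochberg adjustment over all of them and a threshold of 0.05. Since the authors' SDs do not enter that fit, library overlap was bounded from means and SDs, with rounding of means and SDs allowed for. Folds are ratios of means plus 1. Tables and plots were made with Python 3.11.15, pandas 2.3.3 and matplotlib 3.10.9, and the fit was tested on simulated data.

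The 5 transcripts and the lists were chosen with earlier results of these data known. Named list transcripts are those past a stage test and the entry with the highest nectary mean of each role. The text gives the called entries in full and, of the most abundant ones, those with a value that a sentence turns on. Transcripts alike in pattern are the 3 with the highest Pearson correlation over 23 groups. A search word that matched nuclear pore proteins was replaced after the table was seen. Alternatives covered the pseudocount, the filter, rescaling by median of ratios, locus sums, the block, the duplicated columns and each profile left out. No reference was used, so no sequence or position is given.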

Additional observations from a re-analysis of the deposited data

Results flagged for a closer look

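Among 25 sets of 5 profile changes, 4 held a profile far from the others. Chance flags about 1 in 20 independent sets, but these sets share stages and some hold profiles fixed at 0. That rate therefore does not apply here, and the rate over all transcripts was not computed. XM_016652759.1 of N. rustica changed by -2.45 on the log2 scale post secretory against stage 12, and by 0.65 at stage 12 against stage 6. NtMPO2 of N. rustica changed by 1.81 at stage 12 against stage 9, from a mean of 3 to 13, while N. benthamiana and N. glauca, listed at 0, have a change of 0 by construction. CYP82E2 of N. benthamiana changed by 3.33 at stage 12 against stage 6, where the other profiles were at 0 or at 5 to 9, so that this profile alone could stand apart.

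In 12 of the 25 sets, the later group of 1 profile was apart above the earlier one, and that of another profile apart below. The share of such sets over all transcripts was not computed, and the difference was not tested. The profiles that stood farthest apart are given, as differences of log2 changes. For ornithine decarboxylase the joint profile exceeded N. glauca by 4.68 at stage 12 against stage 9, and N. benthamiana exceeded N. glauca by 6.73 post secretory against stage 6. For NtMPO2, N. plumbaginifolia exceeded the joint profile by 1.84 post secretory against stage 12. For AB038494.1, N. rustica exceeded N. glauca by 2.49 at stage 12 against stage 9 and by 2.95 at stage 12 against stage 6. N. benthamiana exceeded N. rustica by 4.25 post secretory against stage 12 and N. glauca by 3.79 post secretory against stage 6. For XM_016652759.1, N. rustica exceeded the joint profile by 1.02 at stage 9 against stage 6 and by 1.39 at stage 12 against stage 6, and N. glauca by 0.99 at stage 12 against stage 9. For CYP82E2, the joint profile exceeded N. rustica by 4.31 at stage 9 against stage 6, on means of 5 and 16 against 6 and 0, a size that the pseudocount of 1 sets in part, and N. rustica exceeded N. benthamiana by 5.21 post secretory against stage 12, on means of 5 and 30 in N. rustica.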

How the results depend on the processing

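No paired analysis was possible because the columns hold group means and carry no replicate numbers. Leaving out the 3 groups of widest spread or those of high AGL11, and summing copies, were chosen after seeing the data. Of the counts of transcripts called, apart pairs and list calls, 147 results kept their size and 36 moved, where the cause was not tested. Post secretory against stage 6, the 1 call of the 5 transcripts became 0 with no profile block, without the widest-spread groups and without the high AGL11 groups, and 0 to 1 with 1 profile left out. The 9 list calls there became 0 with no block, 5 at a filter of 100 or without the widest-spread groups, 2 without the high AGL11 groups and 2 to 8 with 1 profile left out. Counting both identical profiles gave 3 and 25 there, 1 and 6 post secretory against stage 12, 1 and 8 at stage 12 against 6, and 2 and 22 for any stage, where 24.1%, 5.38%, 6.22% and 19.1% of all transcripts were called. Over any stage, 0 of the 5 became 1 at a filter of 100 and 0 to 1 with 1 profile left out. The 1 list call of any stage became 2 at a pseudocount of 10, 5 at a filter of 100, 0 with no block, without the widest-spread groups or without the high AGL11 groups, and 1 to 2 with 1 profile left out. The 0 list calls post secretory against stage 12 became 2 at a filter of 100, 1 without the high AGL11 groups and 0 to 1 with 1 profile left out, and those at stage 12 against 6 became 0 to 1. Of the steps apart, 43 became 22 with a 2-fold minimum (34.9%, beside 14.5% of all transcripts) and 24 at 3 times the summed SDs (38.1%, beside 15.7%), and 32 tissue pairs became 21 with a 2-fold minimum (43.8%, beside 53.2%).

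Estimates that changed sign were all of contrasts that did not pass the test. CYP82E2 at stage 9 against 6 (-0.01) became 0.27 at a pseudocount of 10, 0.34 in locus sums, 0.24 with both copies, 0 with copies summed and -0.39 to 0.68 with 1 profile left out (0.68 without N. rustica). Its post secretory values became 0.1 against stage 12 in locus sums, and -0.02 (without N. rustica) to 0.66 with 1 profile left out and -0.14 without the widest-spread groups against stage 6. NtMPO2 became -0.4 in locus sums post secretory against stage 6 and -0.25 to 0.06 (without the joint profile) with 1 left out post secretory against stage 12. AB038494.1 at stage 12 against 9 ran from -0.51 to 0.11 with 1 profile left out (0.11 without N. glauca, 0.03 without N. plumbaginifolia). XM_016652759.1 ran from -0.17 to 0.08 (without N. glauca) with 1 left out, and was 0.02 without the widest-spread groups at stage 12 against 9, and 0.23 without the high AGL11 groups at stage 9 against 6. Ornithine decarboxylase ran from -1.5 to 0.18 (without N. glauca) with 1 left out, and was 0.77 without the high AGL11 groups post secretory against stage 6, and -0.08 without the widest-spread groups post secretory against stage 12. Of all transcripts, the 3334 calls post secretory against stage 6 became 466 without the joint profile, 691 without the widest-spread groups, 27 with no block and 8798 with both copies.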
